A study of Zea mays with 8 samples.

Results

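The 10 genes described here are the maize genes of anthocyanin synthesis and 2 of their regulators. They were chosen by gene ID and ordered by their step in the pathway, and they are 10 of the 39423 genes in the deposited table. The 8 structural genes are c2, chi1, f3h, pr1, A1, a2, bronze and bronze-2, and the 2 regulators are c1 and R-S. The rule names the genes by ID alone and uses no measured value. Endosperm RNA of maize (Zea mays) in the W22 background was sequenced at 12 days after pollination. There were 4 pools of kernels labelled ded1-ref, each paired with a pool of normal sibling kernels. The mutation is in ded1, a gene of the MYB family of transcription factors. The labels call the pools biological replicates and do not give the number of kernels per pool, nor the alleles of the colour genes in these plants. ded1-ref and normal are used below as the labels of the libraries.

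Anthocyanins are the red to purple pigments of the maize kernel, and in the endosperm they are known from the aleurone, its outer cell layer. Enzymes build them from phenylpropanoid precursors in a fixed order of steps, and the finished pigment is moved into the vacuole. A MYB protein (C1 in the kernel) and a basic helix-loop-helix protein of the R family are known to activate the structural genes together, with the WD40 protein encoded by pac1.

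The libraries held 13924952 to 20725033 recovered reads in ded1-ref and 10536845 to 16246294 in normal, and levels are length-scaled transcript shares (TPM), summed per gene. The test was limma-trend on log2(TPM + 1), with the pair as a block, and took in genes that reached 1 TPM in 4 or more libraries. These were 13671 genes, among them f3h, a2, bronze-2 and c1. The other 6 members were below that level. On the TPM scale the median tested gene changed by -0.68 log2 units in ded1-ref, so a second test, called the scaled test, took TPM after division by median-of-ratios size factors, and its median change was -0.0031. Rose and fell are used only where both tests passed an adjusted p of 0.05. Log2 changes are ded1-ref minus normal with their standard error (SE), and they understate the change of low genes. The targeted gene ded1 had levels of 67.3, 69.7, 101 and 67.4 TPM in replicates 1 to 4 of ded1-ref, against 42.0, 40.2, 38.5 and 37.0 TPM in normal, so its level does not check the labels by a loss.

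f3h, pr1, A1, a2 and bronze-2, genes of the middle and late steps of the pathway, stood higher in every ded1-ref library than in any normal library, and the members other than f3h and c1 were below 1 TPM in every normal library. f3h, a2, bronze-2 and c1 rose in ded1-ref. Over all tested genes, 482 rose, which is 3.53%. This share cannot be read against f3h, a2 and bronze-2, because they passed the filter on levels only through ded1-ref. f3h reached 1 TPM in 1 normal library and a2 and bronze-2 in none, and of the 53 tested genes that reached it in no normal library, 100% rose. Without a filter on levels, f3h, pr1, A1, a2 and bronze-2 were called higher on both scales, which is 5 of the 10 members, against 1.66% of the 29351 genes with any reads. They are the 5 genes whose groups did not overlap. Such a separation, with ded1-ref higher, holds for 1.64% of the 29351 genes on the TPM scale and for 7.15% on the scaled TPM, where the members were again the same 5.

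**Figure D1:**
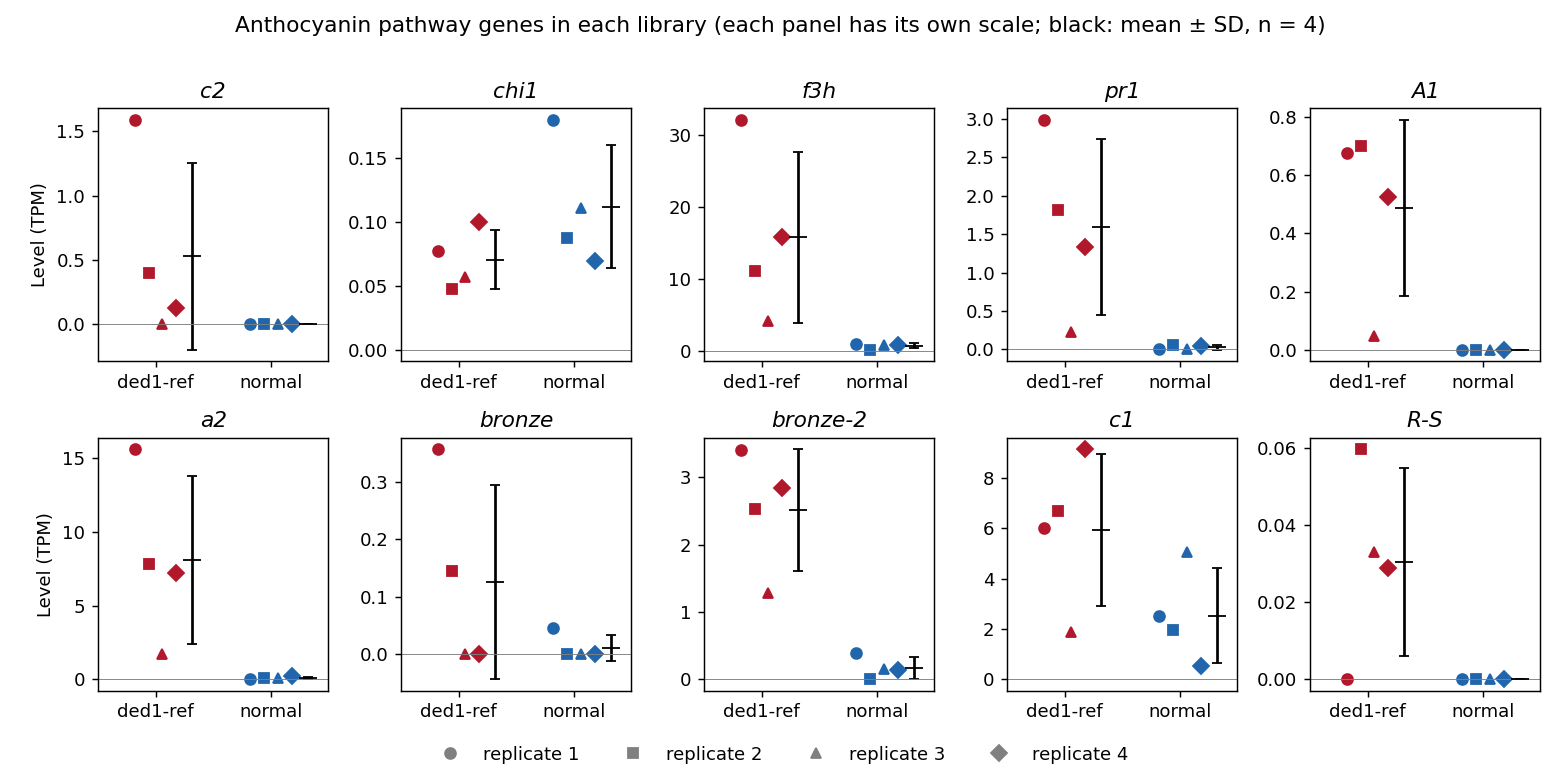
Level of each member in TPM in the 4 ded1-ref libraries (left of each panel) and the 4 normal libraries (right), with a symbol per replicate and bars for the group mean and SD. The groups are apart for f3h, pr1, A1, a2 and bronze-2 and overlap for c2, chi1, bronze, c1 and R-S, and the scale differs between panels.

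The first enzyme of the pathway, chalcone synthase, is encoded by c2 (GRMZM2G422750). It had 1.59, 0.4, 0 and 0.129 TPM in ded1-ref replicates 1 to 4, against 0 TPM in each of the 4 normal libraries. Replicate 1 carried most of this, and replicate 3 could not be told from normal. The levels rest on 61, 13, 0 and 4 reads in ded1-ref and on none in normal, and against a floor of 3 reads over the normal group the share of library reads was at least 20.6-fold higher in ded1-ref, or at least 6.44-fold without ded1-ref replicate 1. Of the 78 reads, 73 lay on the third of its transcript rows. c2 was below the level for testing, and without a filter it missed the threshold (limma, adjusted p = 0.098 on TPM and 0.224 on scaled TPM).

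chi1 (GRMZM2G155329) encodes chalcone isomerase, the second enzyme. It had 0.0776, 0.0474, 0.0569 and 0.0996 TPM in ded1-ref, against 0.18, 0.0874, 0.111 and 0.0695 TPM in normal. These overlapping levels came from 6 reads in ded1-ref and 7 in normal. The ratio of ded1-ref to normal, as shares of library reads, was 0.68, with a 95% interval of 0.189 to 2.36 that covers counting error only, as do all such intervals here. A difference in chi1 was not detectable at this depth.

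f3h (GRMZM2G062396) encodes flavanone 3-hydroxylase, which makes the dihydroflavonols. It was the most abundant member in ded1-ref, with 32.1, 11.2, 4.26 and 15.8 TPM, against 1.08, 0.252, 0.876 and 0.851 TPM in normal. Every ded1-ref library lay above every normal one, although the ded1-ref levels differed 7.52-fold among themselves. The means were 15.8 ± 11.8 TPM in ded1-ref and 0.765 ± 0.357 TPM in normal (SD, n = 4 each). f3h rose by 2.99 ± 0.32 log2 units (SE, limma, adjusted p = 1.2e-05), and by 3.52 ± 0.32 in the scaled test (adjusted p = 1.3e-04). The pooled reads were 2021 in ded1-ref and 68 in normal, a ratio of 23.6 as shares of library reads, with an interval of 18.5 to 30.5, and of 14.6 without ded1-ref replicate 1.

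pr1 (GRMZM2G025832) encodes the flavonoid 3'-hydroxylase that adds the hydroxyl group of the cyanidin-type pigments. It had 2.99, 1.81, 0.229 and 1.33 TPM in ded1-ref, against 0, 0.0585, 0 and 0.0465 TPM in normal. The groups did not overlap, and replicate 3 stood well below the other ded1-ref libraries. The normal levels were 2 reads in all, against 218 in ded1-ref, a ratio of 86.5 with an interval of 23.6 to 718. That ratio depends on single libraries: it was 139 without normal replicate 2 and 132 without normal replicate 4. It was 63.2 without normal replicate 1, 60.6 without normal replicate 3 and 58.5 without ded1-ref replicate 1. Without a filter on levels the change was 1.21 ± 0.26 on TPM (limma, adjusted p = 0.0126) and 1.43 ± 0.30 on scaled TPM (adjusted p = 0.0325).

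A1 (GRMZM2G026930) encodes dihydroflavonol reductase. It had 0.676, 0.701, 0.0461 and 0.526 TPM in ded1-ref and 0 TPM in each of the 4 normal libraries. The reads behind it were 19, 17, 1 and 13 in ded1-ref, so the separation of replicate 3 from normal rests on 1 read. Of its 50 reads, 44 lay on the third transcript row and 3 each on the first and the fourth. As a share of library reads A1 was at least 13.2-fold higher in ded1-ref than the floor of 3 reads over the normal group. Without a filter its change was 0.55 ± 0.12 on TPM (limma, adjusted p = 0.0149) and 0.66 ± 0.14 on scaled TPM (adjusted p = 0.0382).

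a2 (GRMZM2G345717) encodes anthocyanidin synthase, the next enzyme. It had 15.6, 7.84, 1.73 and 7.22 TPM in ded1-ref, against 0, 0.0779, 0.0493 and 0.186 TPM in normal. The lowest ded1-ref library, replicate 3, still stood above the highest normal one. The means were 8.08 ± 5.69 TPM in ded1-ref and 0.0783 ± 0.0786 TPM in normal (SD, n = 4 each). a2 rose by 2.81 ± 0.32 log2 units (SE, limma, adjusted p = 2.0e-05), and by 3.19 ± 0.35 in the scaled test (adjusted p = 2.9e-04). It had 1663 reads in ded1-ref and 10 in normal, and the ratio of read shares was 132 with an interval of 71.5 to 276. It was 251 without normal replicate 4 and 86.8 without ded1-ref replicate 1.

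bronze (GRMZM2G165390) encodes the glucosyltransferase that adds glucose to the anthocyanidin. It had 0.356, 0.145, 0 and 0 TPM in ded1-ref, against 0.0459, 0, 0 and 0 TPM in normal. Only replicates 1 and 2 of ded1-ref stood above the highest normal library, and the groups overlapped. With 16 reads in ded1-ref and 1 in normal, the ratio of read shares was 12.7 with an interval of 1.97 to 532, and 4.55 (0.45 to 224) without ded1-ref replicate 1. Without normal replicate 1, which holds the 1 normal read, bronze was at least 3.09-fold higher than the floor of 3 reads. Without a filter bronze missed the threshold (limma, adjusted p = 0.154 on TPM and 0.291 on scaled TPM).

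bronze-2 (GRMZM2G016241) encodes a glutathione S-transferase that is known to be needed for moving the pigment into the vacuole. It had 3.41, 2.52, 1.28 and 2.84 TPM in ded1-ref, against 0.393, 0, 0.155 and 0.13 TPM in normal. The groups did not overlap, and its ded1-ref libraries were closer together than those of any other member that rose, with a 2.67-fold range. The means were 2.51 ± 0.902 TPM in ded1-ref and 0.169 ± 0.164 TPM in normal (SD, n = 4 each). bronze-2 rose by 1.56 ± 0.19 log2 units (SE, limma, adjusted p = 3.6e-05), and by 1.90 ± 0.18 in the scaled test (adjusted p = 1.3e-04).

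The regulator c1 (GRMZM2G005066) encodes the MYB activator of the kernel. It had 6.02, 6.7, 1.88 and 9.14 TPM in ded1-ref, against 2.53, 1.97, 5.07 and 0.523 TPM in normal. Its groups overlapped: c1 was higher in ded1-ref in 3 of the 4 pairs, and in replicate 3 it was lower in ded1-ref. The means were 5.94 ± 3.02 TPM in ded1-ref and 2.52 ± 1.9 TPM in normal (SD, n = 4 each). c1 rose by 1.01 ± 0.43 log2 units (SE, limma, adjusted p = 0.0471), and by 1.60 ± 0.43 in the scaled test (adjusted p = 0.0259). The call is near the threshold. It was lost without replicate 2 (adjusted p = 0.129), and without replicate 4 the change on TPM was 0.43 with an adjusted p of 0.28. In the scaled test it was lost without replicate 1, 2 or 4, with adjusted p-values of 0.074, 0.09 and 0.067.

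R-S (GRMZM5G822829) is a gene of the R family, which encodes the basic helix-loop-helix partner. It had 0, 0.0596, 0.0331 and 0.0289 TPM in ded1-ref and 0 TPM in every normal library. These levels are 4 reads in all, 3 of them on the third transcript row and 1 on the first, and no change can be given at this depth. Maize carries several near-identical copies of R genes, and c1 and c2 each have a close copy (pl1 and whp1), so reads of these genes could have been assigned to one or the other.

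By mean level in ded1-ref the members ran f3h, a2, c1, bronze-2, pr1, c2, A1, bronze, chi1 and R-S. The ranges of each neighbouring pair in this order overlapped between libraries. Within every ded1-ref library f3h stood above a2, with an a2 to f3h ratio of 0.485, 0.698, 0.405 and 0.456. In normal that ratio was 0, 0.309, 0.0563 and 0.218, lower than in every ded1-ref library. The normal ratios rest on 0, 2, 2 and 6 reads of a2 and on 25, 4, 22 and 17 reads of f3h. At such counts the separation from ded1-ref is uncertain. The 8 structural genes together held 56.7, 24.7, 7.6 and 28 TPM in ded1-ref, against 1.7, 0.476, 1.19 and 1.28 TPM in normal. f3h and a2 made up 84, 77.2, 78.8 and 82.4% of that sum in ded1-ref, against 63.6, 69.3, 77.7 and 80.8% in normal. The normal sums came from 36, 8, 29 and 27 reads, so their percentages are rough.

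Among all 13671 tested genes, 8 had a larger log2 change on TPM than f3h and 9 had a larger one than a2. For bronze-2 that number was 72 and for c1 it was 174. In the scaled test the numbers were 10 for f3h, 14 for a2, 111 for bronze-2 and 193 for c1. Since f3h, a2 and bronze-2 were tested only because they are high in ded1-ref, these positions describe the table and support nothing further.

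**Figure D2:**
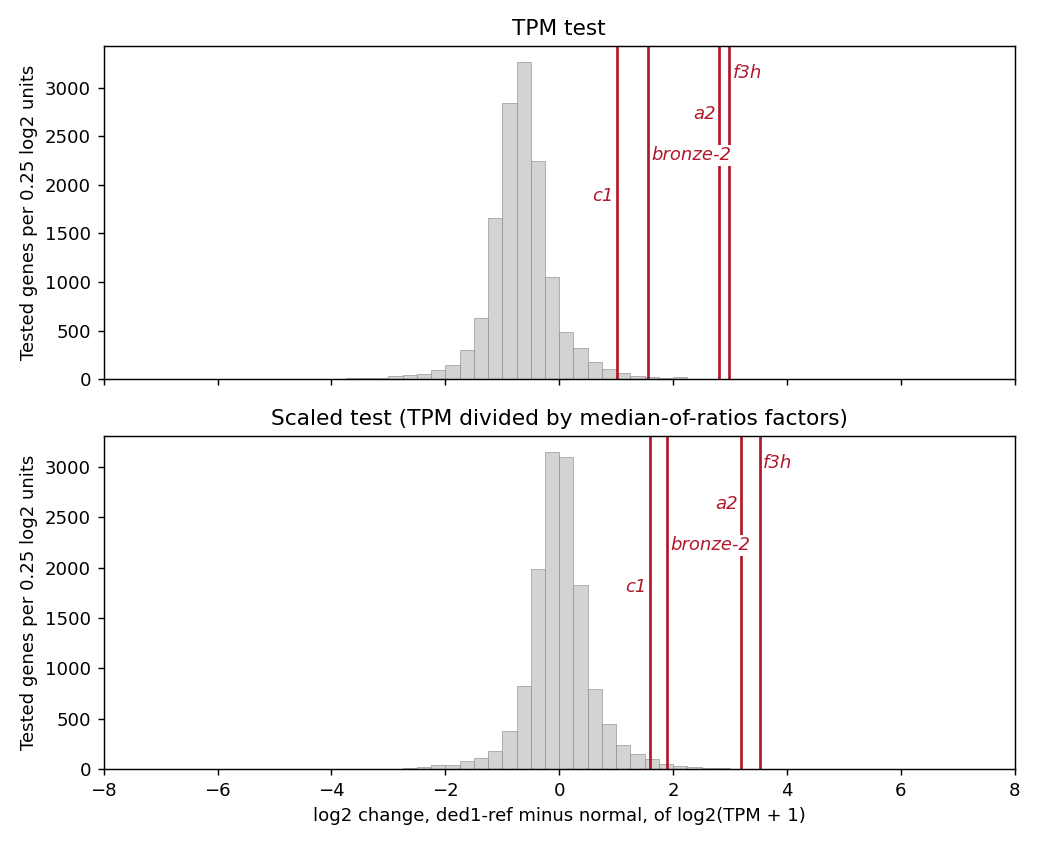
Number of tested genes by log2 change (ded1-ref minus normal) in the TPM test and the scaled test, in bins of 0.25 log2 units, with vertical lines at the 4 tested members. f3h and a2 lie in the far upper tail in both, at 2.99 and 2.81 on TPM, with bronze-2 at 1.56 and c1 at 1.01.

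The authors' deposited table compares transcript rows, with log2 folds of ded1-ref over normal. These folds were computed otherwise than the log2 changes and read ratios above, so their sizes cannot be set side by side. For chi1 the fold was 0.08 (SE 0.63), and for the R-S rows it was 0.23 (SE 0.33) and 0.64 (SE 0.49). Those R-S rows hold 1 and 3 reads, and the largest SE deposited for any row is 0.628. A small SE there does not mean that a gene was measured closely. In the authors' deposited table the fold was 3.86 for f3h (adjusted p = 5.0e-11), 4.38 for pr1 (adjusted p = 3.5e-13) and 4.56 for a2 (adjusted p = 7.5e-13). The authors' deposited table has 3.06 for the third row of A1 (adjusted p = 1.8e-05), 3.86 for bronze-2 (adjusted p = 1.0e-15) and 1.72 for c1 (adjusted p = 0.00152). For bronze the authors' deposited table has 1.23 with an adjusted p of 0.179, and it gives no adjusted p for c2, chi1 or R-S. Higher calls make up 7.95% of the 25585 rows with an adjusted p in the authors' deposited table.

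The ded1-ref libraries ranked alike for most of the pathway. ded1-ref replicate 3 was alone the lowest of its group for 7 of the 10 members, and for bronze it tied at 0 with replicate 4. ded1-ref replicate 1 was the highest for 6, namely c2, f3h, pr1, a2, bronze and bronze-2. The exceptions were chi1, lowest in replicate 2 and highest in replicate 4, and R-S, lowest in replicate 1 and highest in replicate 2, both with 6 reads or fewer in the group. A1 was highest in replicate 2 and c1 in replicate 4, and both were lowest in replicate 3.

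Kendall's W, which is 1 when all genes give the libraries the same order and 0 when they share none, was 0.42 over the 10 members in ded1-ref and 0.09 in normal. Over the 8 structural genes in ded1-ref it was 0.67. These genes were measured in the same 4 libraries, so W is a description and carries no test. Over the 10 members W fell to 0.13 without replicate 3. Replicate 1 was still the highest for 6 members there, all of them structural genes. The 2 members lowest in replicate 1 there were the regulators c1 and R-S, the latter on 4 reads. W without replicate 3 was not taken over the 8 structural genes alone, so the 0.13 does not describe their order. The low place of replicate 3 is in part common to the whole table on the TPM scale, where 48.5% of the 13671 tested genes were lowest in ded1-ref replicate 3. The high place of replicate 1 is not, since 9.61% were highest in replicate 1 and 55.7% in replicate 2. On scaled TPM 26.6% were lowest in replicate 3 and 23.7% highest in replicate 1. Among the members on that scale, replicate 3 was lowest for 7 and replicate 1 highest for 7. ded1-ref replicate 3 was also the shallowest library of its group, with 13924952 reads, and had its lowest median-of-ratios factor, 0.601. The part of depth in the order of the libraries was not tested.

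**Figure D3:**
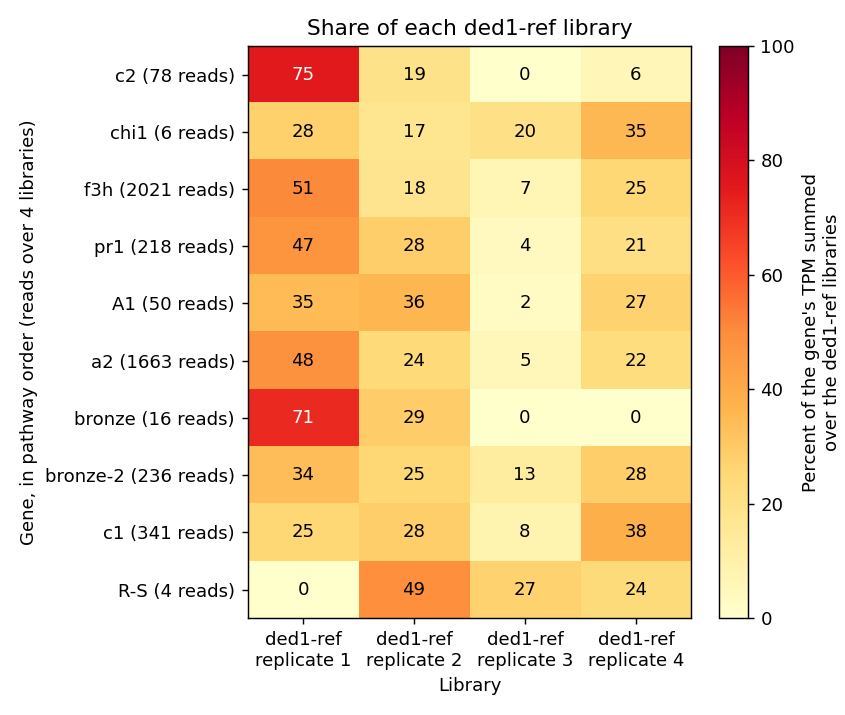
Share of each member's summed ded1-ref level that came from each of the 4 ded1-ref libraries, in percent, with members in pathway order. Replicate 1 gave the largest share for 6 members and replicate 3 alone the smallest for 7. For chi1 and R-S neither held, and A1 and c1 had the smallest share in replicate 3 but the largest outside replicate 1.

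The 3 structural genes that rose stood higher relative to c1 in every ded1-ref library than in any normal library. The ratio of f3h to c1 was 5.33, 1.68, 2.26 and 1.73 in ded1-ref, against 0.427, 0.128, 0.173 and 1.63 in normal. The groups did not overlap, although normal replicate 4, with 0.523 TPM of c1, came close. The ratio of a2 to c1 was 2.59, 1.17, 0.916 and 0.789 in ded1-ref, against 0, 0.0395, 0.00971 and 0.355 in normal, again with no overlap. For bronze-2 it was 0.567, 0.377, 0.678 and 0.311 in ded1-ref, against 0.155, 0, 0.0305 and 0.248 in normal, with the groups apart by a small gap. In the third pair, normal had 5.07 TPM of c1 and 0.0493 TPM of a2, while ded1-ref had 1.88 TPM of c1 and 1.73 TPM of a2. Normal replicate 4, which came closest to ded1-ref in each case, had 5 reads of c1, 6 of a2 and 2 of bronze-2, so its ratios are uncertain. The 3 structural genes passed the filter only through ded1-ref, so their higher ratios there support nothing further. These ratios are given as values, with no test.

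**Figure D4:**
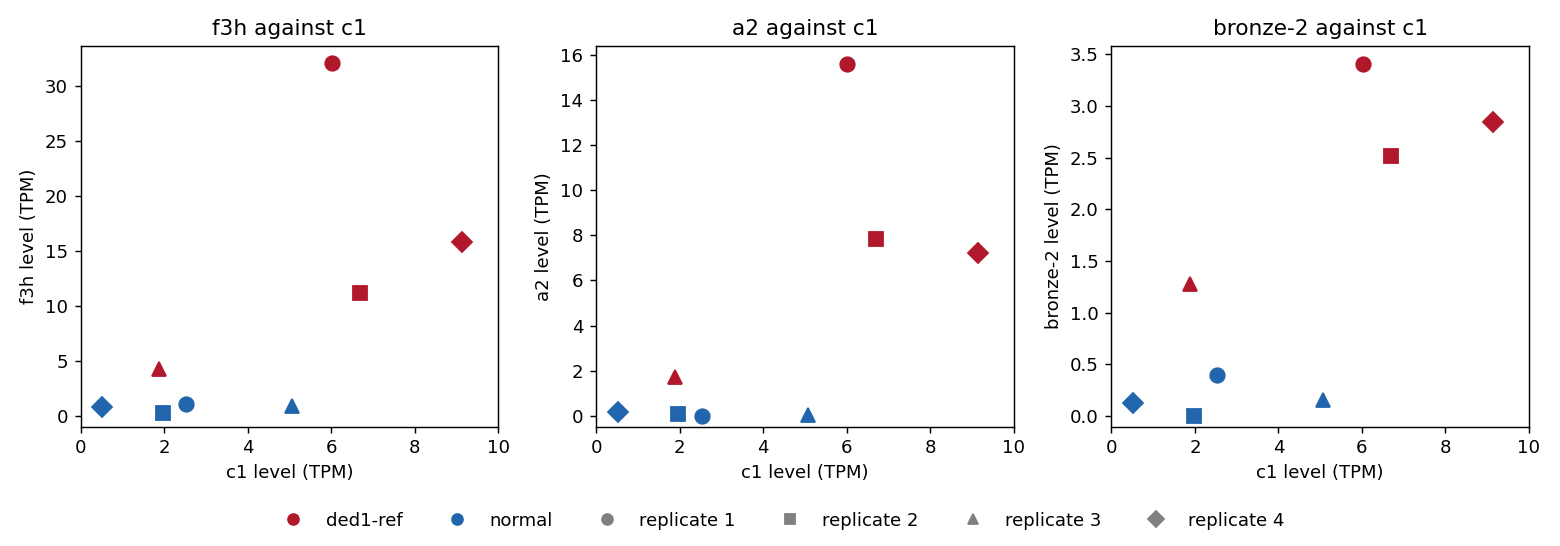
Levels of f3h, a2 and bronze-2 in TPM against the level of c1 in TPM in the same library, with ded1-ref and normal libraries marked by group and replicate. Normal replicate 3 has more c1 (5.07 TPM) than ded1-ref replicate 3 (1.88 TPM) and less of each of the 3 structural genes.

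Other genes of the flavonoid branch and of pigment transport were sought by 29 symbols, of which 8 matched, giving 9 genes, and 2 of these genes could be tested. Neither rose nor fell. pac1, the WD40 partner of the regulators, had 12.3, 16.2, 5.67 and 12.5 TPM in ded1-ref, against 13.8, 14.2, 16.0 and 12.6 TPM in normal. Its groups overlapped, and its change was -0.33 on TPM (adjusted p = 0.213 by limma) and 0.44 on scaled TPM (adjusted p = 0.135). mrp4, a transporter gene of the multidrug resistance-associated family, had 25.1, 28.0, 14.3 and 9.42 TPM in ded1-ref, against 33.5, 41.8, 35.7 and 43.8 TPM in normal. All ded1-ref libraries lay below the normal ones, with a change of -1.08 on TPM (adjusted p = 0.00164 by limma), a direction called for 69.8% of tested genes on that scale. On scaled TPM the change was -0.28 (adjusted p = 0.483). Each of the 2 genes had an unadjusted p under 0.05 in 1 of the tests.

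Of the genes too low to test, p1, the MYB regulator of phlobaphene pigments, had 22 reads over the ded1-ref libraries and none in normal. Without a filter p1 was called higher (limma, 0.30 with an adjusted p of 0.00976 on TPM and 0.40 with 0.0258 on scaled TPM). pl1, the close copy of c1, had 42 reads in ded1-ref and 6 in normal, and was called by limma-voom alone, without a filter, a fit that called 2.75% of 29351 genes higher (adjusted p = 0.0164 with library totals and 0.0141 with size factors). whp1, the copy of c2, had 4 reads in ded1-ref and 1 in normal. pal1, for phenylalanine ammonia-lyase at the entry to the pathway, had 31 reads in ded1-ref and 16 in normal and passed neither unfiltered test. None of the 4 matched genes of the lignin branch, which shares these precursors, could be tested, nor could any of 7 further phenylpropanoid genes found by name. Of these, 4CL, named for the enzyme that activates coumaric acid at the entry to the pathway, had 1.76, 2.21, 0.584 and 2.03 TPM in ded1-ref, against 0.411, 0.149, 0.908 and 0.284 TPM in normal. The groups overlapped through replicate 3, the pair in which 4CL was lower in ded1-ref. It had 248 reads in ded1-ref and 48 in normal, a ratio of 4.1 (3 to 5.71). Without a filter 4CL missed the threshold on TPM (limma, adjusted p = 0.0644) and passed on scaled TPM (0.0406) and with limma-voom (0.00484 with library totals and 0.00249 with size factors).

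bronze-2 belongs to a large enzyme family, and 32 other glutathione S-transferase genes were found by name, of which 8 were tested. gst19 and gst30 rose, which is 2 of 8 beside 3.53% of all tested genes, by 1.13 and 0.66 log2 units on TPM and by 1.74 and 1.41 in the scaled test. gst1, gst5 and gst6 fell, which is 3 of 8 beside 10.6% of all tested genes, with changes of -2.66, -1.42 and -2.12 on TPM and of -1.82, -0.73 and -1.30 in the scaled test. The median change of the 8 was -0.47 on TPM and 0.11 in the scaled test, beside -0.68 and -0.0031 over all tested genes.

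In pooled tissue, fewer cells of a type and less RNA per cell cannot be told apart, so levels of marker genes are given beside the pathway. Of 7 aleurone genes 5 were tested, and none rose or fell on both scales. Their summed level was 23.6 to 44.1 TPM in ded1-ref, against 64.7 to 85.7 TPM in normal. On TPM, vpp1, dek1, cr4, sal1, nkd1 and nkd2 were each lower in ded1-ref in 4 of 4 pairs. Lower in ded1-ref was the call for 69.8% of all tested genes on that scale. vp1, known in maize as an activator of c1 in the aleurone, had 0.622, 0.786, 0.283 and 0.526 TPM in ded1-ref, against 0.577, 0.574, 0.245 and 0.278 TPM in normal. The groups overlapped, and vp1 was higher in ded1-ref in 4 of 4 pairs, though replicate 3 had 7 reads in ded1-ref and 7 in normal. Without a filter its change was 0.13 on TPM (limma, adjusted p = 0.421) and 0.39 on scaled TPM (adjusted p = 0.0858).

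Of 10 embryo genes 4 were tested and 1, MGL3, rose, beside 3.53% of all tested genes. In the scaled test alone ole1 and wox2A were also called higher, by 0.60 and 0.64 log2 units (limma, adjusted p = 0.0306 and 0.013), while their changes on TPM were -0.24 and -0.16. The scaled test by itself called 12.3% of all tested genes higher. MGL3 had 25.2, 9.05, 7.16 and 35.1 TPM in ded1-ref, against 3.98, 4.27, 11.3 and 5.1 TPM in normal. Like most of the pathway it was lowest in replicate 3 within ded1-ref. dhn1, a dehydrin gene, had 2.79, 1.47, 0.842 and 5.67 TPM in ded1-ref, against 0.444, 0.388, 0.491 and 0 TPM in normal, with no overlap, and without a filter it was called higher (limma, adjusted p = 0.0353 on TPM and 0.0419 on scaled TPM). The summed embryo level was 242 to 459.7 TPM in ded1-ref, against 297 to 527 TPM in normal. wox5B was at 0 in every library, and glb2, lec1, kn1 and emb5 were at 0 in every normal library. Over the ded1-ref libraries glb2, kn1 and emb5 had 1 read each and lec1 had 6, too few to tell the groups apart.

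All 6 tested of 8 basal transfer layer genes fell, against 10.6% of all tested genes, with a summed level of 150.4 to 292 TPM in ded1-ref, against 489 to 1220 TPM in normal. The 11 starchy endosperm genes were all tested and none rose or fell on both scales, at 36277 to 50847 TPM in ded1-ref, against 55439 to 74572 TPM in normal. The 4 genes of maternal kernel tissue were too low to test, at 0.403 to 2.78 TPM in ded1-ref, against 0.868 to 6.9 TPM in normal. The part of these cell types in the levels of the pathway genes was not tested.

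Among the 1238 tested genes with an informative name, the pattern most like that of the 3 tested structural members, f3h, a2 and bronze-2, was sought. Likeness was the correlation over the 8 libraries of deviations from the group means. In normal the 3 members were at 1.08 TPM or less, so their deviations there were small beside those in ded1-ref. The 5 closest were PP2C11 (Pearson's r = 0.947), DBP1a (0.915), PYL2 (0.907), PP2C16 (0.902) and endo1 (0.900). PP2C11 had 8.72, 5.23, 1.27 and 8.15 TPM in ded1-ref, against 7.81, 5.97, 6.49 and 5.9 TPM in normal. It thus shared the low level in ded1-ref replicate 3 without a difference between the groups that passed a test. None of the 5 rose or fell on both scales, and the change of endo1 was -0.33 on TPM and 0.51 in the scaled test. For c1 the same correlation was 0.54, and 177 of the 1238 genes stood above it. These correlations share libraries and depth with the members and are a description of 8 libraries.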

How the data were processed

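Cutadapt 1.1, Trimmomatic 0.22 and GSNAP 2013-07-20 are the tools named, per the submitters' processing notes. Neither the counter nor the genome build is given in the sources used here. The libraries did not mark strand, per the labels' protocols. The authors deposited TPM for 63293 transcript rows. Their own comparison has, per the file headers, a mean normalized signal, a log2 fold change, the log2 standard error of that fold, a score for the test and a p-value with its adjusted form. The deposited score has a sign opposite to the deposited fold, so direction was taken from the fold's header and the TPM.

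Reads were recovered from TPM and the deposited mean signal, and 100% of 236228 values above 0 came out whole to within 0.05 reads. Rows were summed to 39423 genes. Tests used limma 3.58.1 in R 4.3.3 on log2(TPM + 1), with Benjamini-Hochberg adjustment over all tested genes, and the scaled test divided TPM by median-of-ratios factors. The plan named a count model for count tables; no column holds counts, so limma was used. limma-voom ran on the recovered reads as an alternative. The method was tested on simulated data. The block follows the stated pairing of siblings, and deviations of same-numbered libraries from the group means correlated at 0.115, 0.333, 0.309 and 0.149 in the 4 pairs. Intervals of read ratios are exact binomial intervals at 95%, and floors are 3 reads over a group. Both cover counting error only.

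Gene names were looked up in a RefSeq table (assembly Zm-B73-REFERENCE-NAM-5.0) that matched 18771 of 39423 genes. No positions are given, since the build is not stated. The name pr1 is not in that table and was taken from the choice of genes by ID. All members are named, with their transcript rows where more than 1 held reads. The tested genes of the flavonoid list are named too, and p1, pl1, whp1, pal1, 4CL and the glutathione S-transferases were named after their values were seen. The members, gene lists and tests were chosen with earlier results of these data known. The lists of glutathione S-transferases and of further phenylpropanoid names were written after the names were seen.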

Additional observations from a re-analysis of the deposited data

Results flagged for a closer look

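bronze stood out in 1 normal library. Its level was 0.0459 TPM in normal replicate 1 and 0 TPM in the other 3 normal libraries, so that the highest library lies apart from the rest of its group. The level is 1 read, and with the other 3 libraries at 0 any level above 0 would be flagged. Dixon's test was applied to 17 groups of 4 libraries. Chance flags about 1 in 20 groups of continuous values, a rate that does not hold for groups that are mostly 0.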

How the results depend on the processing

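f3h, a2 and bronze-2 stayed higher and past the threshold under each of 15 alternatives, with log2 changes of 2.65 to 5.08 for f3h, 2.40 to 7.44 for a2 and 1.47 to 4.81 for bronze-2. c1 kept its direction and passed in 10 of 15, and its adjusted p over them ran from 0.00168 to 0.28. These 10 include the fit without replicate 1, which passed on TPM (limma, adjusted p = 0.0138) but missed in the scaled test (0.0737). They also include the fit of transcript rows (adjusted p = 0.0499), where c1 has 1 row and thus the same levels. Beside the replicates named above, c1 missed the threshold with a pseudocount of 0.1 (adjusted p = 0.0564), with no filter (0.19) and with a minimum of 10 reads (0.0569). Without the replicate block, 4 members were called, as with it, and the block changed no call of a member. With limma-voom and no filter, chosen after seeing the data, 7 members were called with library totals, with size factors and with both, c2 and c1 being added to the 5 called with no filter by limma-trend. That fit called 2.75% of 29351 genes higher on both scalings. Other flavonoid genes called on both scales numbered 1 with no filter and 2 with limma-voom and no filter, against 0. Leaving out each replicate gave 3 to 4 members called on TPM, 3 to 4 on both scales and 0 other flavonoid genes. The number of members lowest in 1 ded1-ref library alone was 7, and it was 4 over the 4 tested members and 5 to 8 with a replicate left out, where the 5 (without replicate 3) were lowest in replicate 4. The ratios of read shares with each library left out were also added after seeing the data. Depth limits chi1, bronze and R-S, which had 16 reads or fewer in ded1-ref.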
